A study of Mus musculus with 5 samples.

Results

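The delta protocadherins are 10 single-gene cell adhesion receptors, Pcdh1, Pcdh7, Pcdh8, Pcdh9, Pcdh10, Pcdh11x, Pcdh17, Pcdh18, Pcdh19 and Pcdh20, and their counts were followed through the hours after a seizure in the mouse hippocampus. The members were chosen by gene symbol, and the family was chosen on measured values, because the Pcdh8 count at 4 h was far above the control in these libraries. The other 9 genes were taken as the non-clustered relatives of Pcdh8. All 10 symbols were found among 55385 genes, each with 1 identifier, and all 10 genes passed the filter on low counts, which left 19768 genes. Values of Pcdh8 at 4 h are therefore a description and were not tested.

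Protocadherins are transmembrane proteins whose extracellular cadherin repeats bind the same protein on a neighbouring cell, and in the brain they sort axons, dendrites and synapses. The delta members lie as separate genes, unlike the alpha, beta and gamma clusters, and fall by their repeats and cytoplasmic motifs into a delta-1 group (Pcdh1, Pcdh7, Pcdh9 and Pcdh11x) and a delta-2 group (Pcdh8, Pcdh10, Pcdh17, Pcdh18 and Pcdh19), with Pcdh20 kept apart here. Pcdh8, also known as arcadlin, is a synaptic adhesion protein whose transcript is known to respond to neuronal activity, and delta-2 tails recruit the WAVE complex that builds branched actin.

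The data were 5 hippocampal RNA sequencing libraries from male C57/bl6 mice aged 3 months, 1 from untreated animals, 1 from 1 h, 2 from 4 h and 1 from 8 h after the onset of seizures. Seizures followed an intraperitoneal dose of 20 mg/kg kainic acid, an agonist of glutamate receptors, and the control received neither kainic acid nor vehicle. Whether each library held RNA of a single mouse is not given, so the spread between the 4 h libraries, called replicate 1 and replicate 2, cannot be assigned to animals. Gene counts added up to 19100374 for the control, 17744508 for 1 h, 18250114 and 19109204 for the 4 h replicates and 16612225 for 8 h. Replicate 1 at 4 h stood apart from the other libraries in markers of neighbouring tissue and from replicate 2 in activity-regulated genes, both described after the members. The log2 fold changes of the members at 4 h are therefore also given with each replicate left out, and the medians of gene lists in each replicate alone.

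Levels are given as normalized CPM, the count scaled to a common library size with TMM factors, in the order control, 1 h, 4 h replicate 1, 4 h replicate 2 and 8 h. Intervals of 95% are exact Poisson intervals for levels and exact binomial intervals for ratios, and cover counting error only. Every time point was set against the same control library, so the comparisons at 1, 4 and 8 h share its error. Tests used the edgeR quasi-likelihood model with Benjamini-Hochberg adjustment over all 19768 genes, in which the spread came from the 4 h pair alone and the lone libraries were taken to vary like it. The control, 1 h and 8 h values have no replicate of their own. In tissue RNA, fewer cells of a type and less RNA per cell cannot be told apart.

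**Figure D1:**
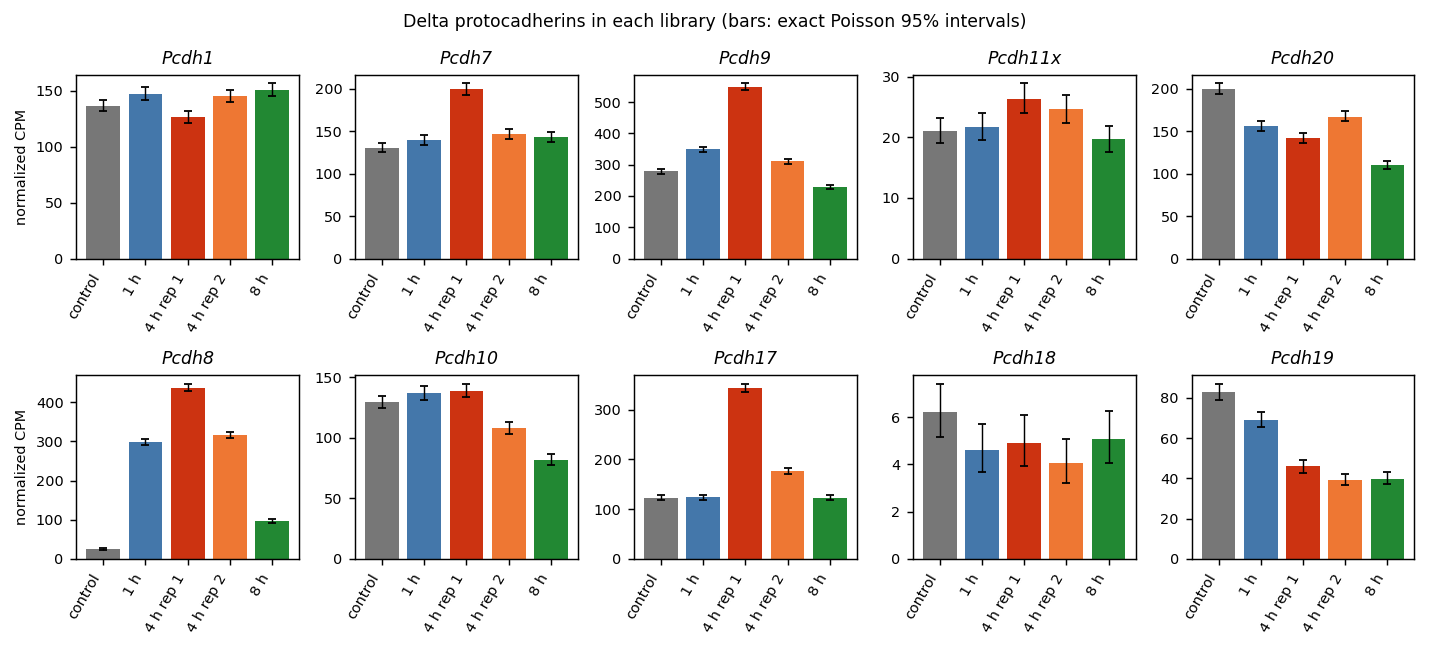
Normalized CPM of the 10 delta protocadherins in each library, with exact Poisson 95% intervals as error bars and a separate vertical scale from 0 for every gene. Pcdh8 goes from 25.0 in the control to 438 and 316 in the 4 h replicates, while Pcdh19 goes from 83.0 to 45.9 and 39.3.

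Pcdh8 stood at 25.0 normalized CPM in the control (95% interval 22.9 to 27.3), 299 at 1 h (291 to 307), 438 (428 to 448) and 316 (308 to 324) in the 4 h replicates and 96.4 at 8 h (91.9 to 101). The underlying counts were 498, 5254, 7372, 5975 and 1690. All 4 kainic acid libraries lay above the control with intervals far apart, the 4 h and 1 h libraries were the highest, and the 8 h library lay between them and the control. The 4 h mean was 377 ± 86.2 (SD, n = 2), which is 15.1 times the control, and the 8 h level was 0.256 of that mean.

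The 1 h and 8 h counts did not enter the choice of the genes, but the shared control and the 4 h pair did. That pair gave the spread behind each SE and p of Pcdh8 at 1 h and 8 h, also in DESeq2. These p values are therefore not independent of the choice. At 1 h the ratio of Pcdh8 to the control was 11.9 (10.9 to 13.1) and the log2 fold change was 3.57 (SE 0.30), rank 40 from the top of 19768 genes. edgeR gave an unadjusted p of 4.28e-05 and an adjusted p of 0.212, above the threshold of 0.05. At 8 h the ratio was 3.85 (3.48 to 4.27), the log2 fold change 1.94 (SE 0.28) and the rank 156, with an edgeR adjusted p of 0.756. DESeq2 on the same counts called Pcdh8 at both times, with adjusted p of 6.18e-19 at 1 h and 0.000258 at 8 h. Over the alternatives the adjusted p ran from 2.07e-44 to 0.428 at 1 h and, for 8 h, between 2.56e-13 and 0.997, so the call depended on the tool, the filter and the scaling while the log2 fold change stayed between 3.50 and 3.58 at 1 h and between 1.93 and 1.97 at 8 h. At 4 h the log2 fold change was 3.91 (SE 0.29), and 4.12 without replicate 2 and 3.65 without replicate 1.

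The number of genes called depended on the tool and the settings. edgeR called 0%, 0.00506% and 0% of the genes at 1, 4 and 8 h, with 478, 2291 and 892 genes at an unadjusted p under 0.05, and limma-voom called 0 genes at each time. DESeq2 called 0.449%, 1.7% and 0.235% of the genes to which it gave an adjusted p. Among the 9 relatives of Pcdh8, edgeR, DESeq2 and limma-voom each called 0 at 1, 4 and 8 h, and edgeR gave an unadjusted p under 0.05 for 0, 2 and 3 of them. With edgeR and no filter on low counts, where 285, 1300 and 279 of 32732 genes were called, Pcdh9, Pcdh17 and Pcdh19 were among them at 4 h and Pcdh19 and Pcdh20 at 8 h. With library size alone, where 57, 237 and 22 genes were called, Pcdh19 was among them at 4 h. A miss of the threshold in this design does not show that a relative stayed level.

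Pcdh8 was the single member at least 2-fold above the control at 1 h, in both libraries at 4 h, and at 8 h. Of all genes tested, 5.41%, 4.96% and 6.79% were as far above the control at these times. At least 2-fold below the control were 0 of the 10 members at 1 h, 0 in both libraries at 4 h and 1 at 8 h, Pcdh19, against 3.8%, 1.51% and 3.37% of all genes. The count at 4 h was fixed in part by the choice of Pcdh8, and nothing is read from it.

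**Figure D2:**
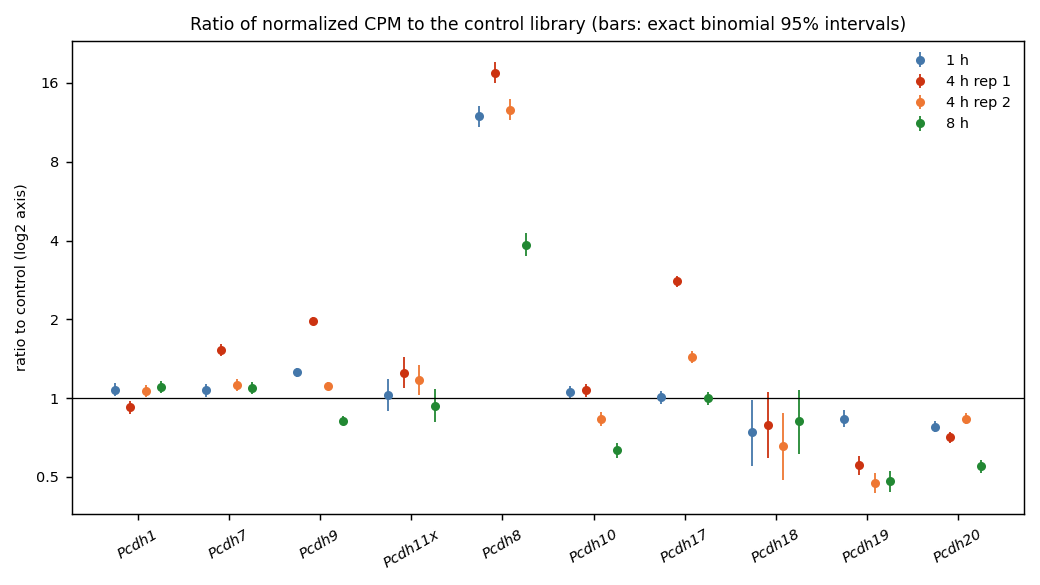
Ratio of normalized CPM to the control library for each member (log2 axis) at 1 h, in the replicates at 4 h and at 8 h, with exact binomial 95% intervals of counting error. Pcdh8 lies between 3.85 and 17.5 times the control, and the lowest ratio among the others is 0.474 for Pcdh19 in replicate 2.

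Pcdh8 (ENSMUSG00000036422.10) has 4 annotated transcripts in GENCODE M21 and lies on the minus strand of mouse chromosome 14 (GRCm38 chr14:79766775-79771312), with a joint exon length of 4538 bases. An antisense gene that overlaps it, Gm9748, covers 9.61% of that exon length. Its counts were 1, 5, 32, 11 and 5, at most 0.434% of the Pcdh8 count. The kit keeps the strand, but the strand setting of the counting is not known, and without it reads of the shared bases cannot be assigned.

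The promoter of Pcdh8 is printed because that gene carried the largest difference among the members, and those of Pcdh17 and Pcdh19 because these were the relatives with the largest log2 fold changes at 4 h, in opposite directions. Each run is the 120 bases before the RefSeq start (GRCm38.p6), written 5′ to 3′ on the strand of the gene, with capitals for the letters CCAAT on either strand (ATTGG as printed) and TATAAA. They lie at chr14:79771313-79771432 (minus strand) for Pcdh8, chr14:84443443-84443562 (plus strand) for Pcdh17 and chrX:133688994-133689113 (minus strand) for Pcdh19.
Pcdh8: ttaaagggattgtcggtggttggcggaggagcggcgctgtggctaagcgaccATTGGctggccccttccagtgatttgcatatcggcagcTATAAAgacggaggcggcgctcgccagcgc
Pcdh17: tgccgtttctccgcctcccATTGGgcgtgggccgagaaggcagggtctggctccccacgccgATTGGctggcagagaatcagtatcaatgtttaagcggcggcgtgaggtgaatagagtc
Pcdh19: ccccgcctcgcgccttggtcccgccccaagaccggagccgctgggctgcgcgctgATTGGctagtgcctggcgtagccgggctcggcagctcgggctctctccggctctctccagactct

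Promoter windows were found for 8 of 10 members, not for Pcdh1 and Pcdh11x, and the 250 bases before each start were searched on both strands, as were those of all 32851 windows in the RefSeq table. TATAAA was found in 1 member, Pcdh8, and in 12.4% of all windows. CCAAT, a motif chosen after the sequences were seen, was found in 7 of 8 members and in 33.8% of all windows, with Pcdh7 as the member without it. The cyclic AMP response element TGACGTCA was found in 0 of 8 members and in 1.55% of all windows. The shorter site TGACG, which lies within it, was found in Pcdh9 and Pcdh10 and in 17.8% of all windows. The AP-1 site TGANTCA was found in 0 members and in 6.75% of windows, the CArG box of serum response factor in 0 members and 1.47%, and the MEF2 site in Pcdh20 alone and in 2.92%. A match is a description of letters in these windows, and a missing match says nothing of sites outside them.

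Within the delta-2 group, Pcdh17, an axon and synapse organiser that binds the WAVE complex, stood at 123, 124, 344, 177 and 123 normalized CPM. The 4 h replicates were the highest libraries and differed from each other by a factor of 1.94 (1.86 to 2.02), while the control, 1 h and 8 h libraries overlapped within counting error. At 4 h its log2 fold change was 1.08 (SE 0.41), higher in 2 of 2 libraries, with an edgeR adjusted p of 0.413 and a range of 1.67e-05 to 0.463 over the alternatives. It was 0.53 without replicate 1 and 1.48 without replicate 2, so the size rested on replicate 1. At 1 h and 8 h the log2 fold change was 0.01 and -0.00, and library size alone in place of TMM factors turned both signs.

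Pcdh19, a partner of N-cadherin whose gene on the X chromosome is mutated in a human epilepsy, stood at 83.0, 69.1, 45.9, 39.3 and 39.9 normalized CPM. All 4 kainic acid libraries lay below the control, and the interval of the 8 h library (37.0 to 42.9) overlapped those of both 4 h replicates (42.7 to 49.3 and 36.6 to 42.3), which lay just apart from each other. The 4 h mean was 42.6 ± 4.64 (SD, n = 2), 0.514 of the control. Its log2 fold change was -0.26 at 1 h (SE 0.22), then -0.96 at 4 h with SE 0.19 and -1.05 at 8 h with SE 0.23, which placed 2.61% of all tested genes below it at 4 h and 2.06% at 8 h. The edgeR adjusted p was 0.260 at 4 h, lower in 2 of 2 libraries, and 0.882 at 8 h, where the alternatives spanned 0.0113 to 0.997. Left out in turn, replicate 1 gave a log2 fold change of -1.07 and replicate 2 of -0.85. With library size alone in place of TMM factors the adjusted p at 4 h was 0.0381, and over the alternatives it ran from 0.000708 to 0.327.

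Pcdh10, which guides axons and takes part in removing synapses, stood at 129.6, 137, 139, 108 and 81.9 normalized CPM. The 8 h library was the lowest, at 0.632 of the control (0.592 to 0.674), and the 4 h replicates lay on either side of the control, so the 4 h log2 fold change of -0.07 was -0.27 without replicate 1 and 0.10 without replicate 2. For 8 h its log2 fold change was -0.66 (SE 0.24), with an edgeR unadjusted p of 0.0387, an adjusted p of 1.00 and a range of 0.259 to 1 over the alternatives. Pcdh18 was the least abundant member, with 124, 81, 83, 77 and 89 counts or 6.23, 4.61, 4.93, 4.07 and 5.08 normalized CPM. All 4 kainic acid libraries were below the control. The ratio to the control was 0.740 at 1 h (0.552 to 0.987) and 0.654 in replicate 2 (0.485 to 0.876), intervals that exclude 1. In replicate 1 (0.592 to 1.05) and at 8 h (0.614 to 1.08) they include 1, so those differences were not detectable at this depth. Its log2 fold changes of -0.43, -0.46 and -0.29 had SE of 0.42, 0.36 and 0.42, and the 4 h value was -0.60 without replicate 1 and -0.33 without replicate 2.

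Among the delta-1 members, which bind the phosphatase PP1 through a cytoplasmic motif, Pcdh9 stood at 278, 349, 549, 310.0 and 229 normalized CPM. Replicate 1 at 4 h was the highest and the 8 h library the lowest, and the 4 h replicates differed by a factor of 1.77 (1.71 to 1.83), so replicate 2 lay below the 1 h library. Its log2 fold changes at 1, 4 and 8 h were 0.33, 0.63 and -0.28 with SE of 0.39, 0.35 and 0.40, and at 4 h it was 0.16 without replicate 1 and 0.98 without replicate 2. The edgeR adjusted p at 4 h was 0.543, with a range of 0.0417 to 0.738 over the alternatives.

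Pcdh7, which binds PP1 and the protein SET, stood at 130.4, 139.6, 199, 147 and 143 normalized CPM. Replicate 1 at 4 h stood above the other libraries, which lay between 130.4 and 147. The 4 h log2 fold change was 0.41 (SE 0.23), with an edgeR adjusted p of 0.551 and a range of 0.447 to 1.00 over the alternatives. It was 0.17 without replicate 1 and 0.61 without replicate 2. Opposite-strand exons cover 21.1% of the Pcdh7 exon length.

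Pcdh1, an adhesion protein also found in airway epithelium, ranged from 126 to 151 normalized CPM over the 5 libraries, with the 4 h replicates at 126 and 145 on either side of the control at 137. Pcdh11x ranged from 19.7 to 26.4 with a control of 21.1, and its ratio to the control in the 4 h replicates was 1.25 (1.09 to 1.43) and 1.17 (1.02 to 1.34), while the intervals at 1 h and 8 h include 1. The log2 fold changes of both genes lay between -0.10 and 0.28 at the 3 times. Without replicate 1 and without replicate 2 the 4 h value was 0.09 and -0.11 for Pcdh1 and 0.23 and 0.32 for Pcdh11x. Neither gene passed the threshold, with edgeR adjusted p of 0.667 to 1.00.

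Pcdh20, a less studied member expressed in neurons, stood at 199.8, 155, 142, 167 and 109.6 normalized CPM. Every kainic acid library was below the control with intervals apart from it, and the 8 h library was the lowest, at 0.548 of the control (0.519 to 0.579). Its log2 fold changes at 1, 4 and 8 h were -0.36, -0.37 and -0.87 with SE of 0.21, 0.18 and 0.21, and at 4 h it was -0.26 without replicate 1 and -0.50 without replicate 2. The edgeR adjusted p at 8 h was 0.906, with an unadjusted p of 0.00774 and a range of 0.0189 to 1.00 over the alternatives.

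Over the 9 relatives, 6 fitted log2 fold changes were positive and 3 negative at 1 h, 4 and 5 at 4 h, and 2 and 7 at 8 h. With library size alone in place of TMM factors these became 4 and 5, 4 and 5, and 3 and 6, and the median of all tested genes at 4 h moved from 0.01 to -0.11. Median-of-ratios factors gave 6 and 3, 4 and 5, and 3 and 6. In each 4 h replicate alone 5 relatives lay above the control and 4 below it, the reverse of the fitted 4 and 5. Over all 10 members the median log2 fold change was 0.06, 0.13 and -0.19 at 1, 4 and 8 h, beside -0.01, 0.01 and 0.01 over all genes tested. Library size alone turned the sign of the median at 1 h to -0.01 and left 0.01 at 4 h, and in replicates 1 and 2 alone the 4 h median was 0.21 and 0.12. All these 4 h medians include Pcdh8, on whose 4 h value the family was chosen, so nothing is read from them. With 5 of the 9 fitted values at 4 h negative, the median of the relatives alone lay below 0. Pcdh7 and Pcdh8 lay above the control in all 4 kainic acid libraries and Pcdh18, Pcdh19 and Pcdh20 below it in all 4, also with library size alone.

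Levels between genes were compared as normalized CPM per kb of exon, with the exons of all annotated transcripts of a gene joined. Which transcripts were expressed was not tested, so the order also depends on these joined lengths. In the control the order was Pcdh9 (41.0), Pcdh20 (36.4), Pcdh1 (15.5), Pcdh7 (12.3), Pcdh17 (9.47), Pcdh10 (8.16), Pcdh19 (7.93), Pcdh8 (5.51), Pcdh11x (1.51) and Pcdh18 (1.16). The neighbours Pcdh10 and Pcdh19, and Pcdh11x and Pcdh18, overlapped within counting error, and the other neighbours did not. Pcdh8 thus held rank 8 of 10 in the control, and rank 1 at 1 h (65.9) and in both 4 h replicates (96.5 and 69.6).

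At 8 h Pcdh8 held rank 2 (21.2), behind Pcdh9 (33.7), with an interval that overlapped that of Pcdh20 (20.0). The share of Pcdh8 in the summed per-kb level of the family was 3.97% in the control, 32.5% at 1 h, 34.6% and 34.3% in the replicates at 4 h and 16.8% at 8 h. Without Pcdh8 the sum was 133, 137, 182, 133 and 105 normalized CPM per kb in the 5 libraries. Replicate 1 stood highest in that sum and the 8 h library lowest. Pcdh17 moved from rank 5 in the control to rank 3 in replicate 1, where its interval overlapped that of Pcdh20, and rank 6 in replicate 2, where its interval overlapped that of Pcdh7.

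**Figure D3:**
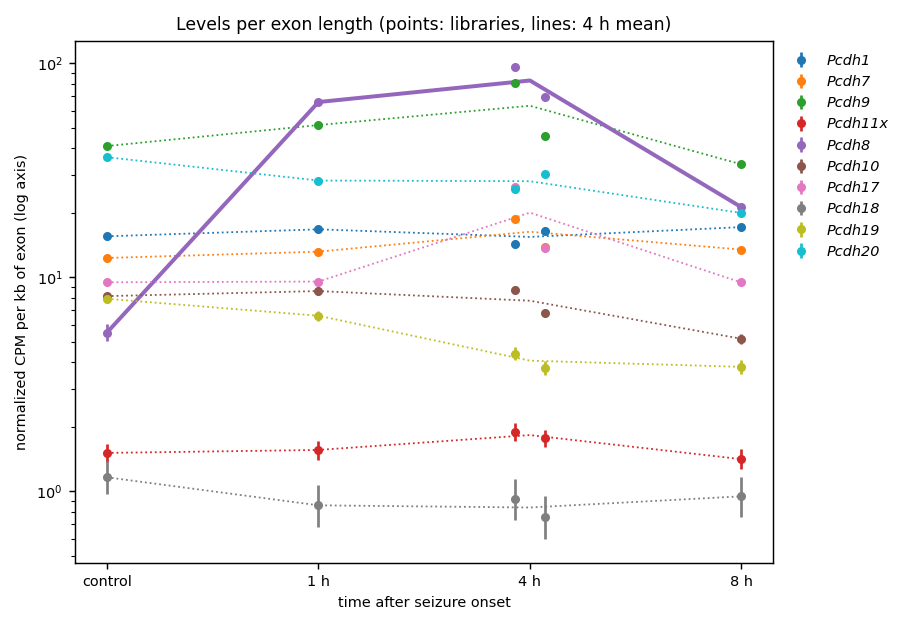
Normalized CPM per kb of exon (log axis) of each member in the control and at 1, 4 and 8 h, with a point and a Poisson 95% interval for each library and lines through the 4 h mean. Pcdh8 (solid line) starts at 5.51, below 7 other members, and lies above them all at 1 h and 4 h.

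The replicates at 4 h differed from each other in several members. Replicate 1 was the higher for 8 of 10, and the ratio of replicate 1 to replicate 2 was 1.39 (1.34 to 1.43) for Pcdh8, 1.36 (1.29 to 1.43) for Pcdh7 and 1.29 (1.21 to 1.37) for Pcdh10, beside the larger ratios of Pcdh17 and Pcdh9 given above. Pcdh1 (0.871) and Pcdh20 (0.848) were the lower ones in replicate 1. Across 11882 genes with a mean of 5 or more normalized CPM, the SD of the log2 ratio of the replicates was 0.49, and 3.87% of them differed at least 2-fold, so the log2 ratios of Pcdh17 (0.96) and Pcdh9 (0.82) lay beyond 1 SD and those of the other members within it.

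Replicate 1 also stood apart in markers of tissue next to the hippocampus. The summed level of 4 choroid plexus markers, of which Ttr was the most abundant, was 3920 normalized CPM in the control, 1652 at 1 h, 26.4 in replicate 1, 4174 in replicate 2 and 3032 at 8 h. The summed level of 4 thalamus markers, led by Prkcd over all libraries together but by Ntng1 in the control and at 1 h, was 77.8, 81.5, 301, 120.5 and 45.4. These sums were 3.87 and 1.55 times the control in replicates 1 and 2 at 4 h and 0.583 times at 8 h. All 4 thalamus markers were above the control in replicate 1 and 2 of 4 in replicate 2, where Prkcd stood at 79.0 normalized CPM against 27.0 in the control and Ntng1 at 34.1 against 44.6. At 8 h Ntng1, at 17.1, carried most of the lower sum, and Prkcd stood at 23.8. The share of reads on no gene was highest in replicate 1 too, at 33.1%, beside 24.7% in the control, 29.0% at 1 h, 25.3% in replicate 2 and 30.9% at 8 h. No marker of either list was at 0 in any library.

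The low choroid plexus sum, the high thalamus sum and the highest share of reads on no gene fell in the library with the highest Pcdh17, Pcdh9 and Pcdh7. Their part in those levels and in the levels of Pcdh8 was not tested. Gene models inside the introns of Pcdh7 on the same strand, 14 in number and sharing no exon base with it, summed to 329, 386, 1138, 500 and 486 counts, so replicate 1 stood at 4.09 times the control (3.61 to 4.64). For 4 such models within Pcdh9 the sums were 511, 597, 1031, 425 and 484, with replicate 1 at 2.38 times the control (2.14 to 2.66). Of these, C230086J09Rik, singled out after its values were seen, went from 357 counts in the control to 856 in replicate 1 and carried most of that difference, and the other 3 had 100, 42 and 12 counts in the control and 119, 41 and 15 in replicate 1.

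**Figure D4:**
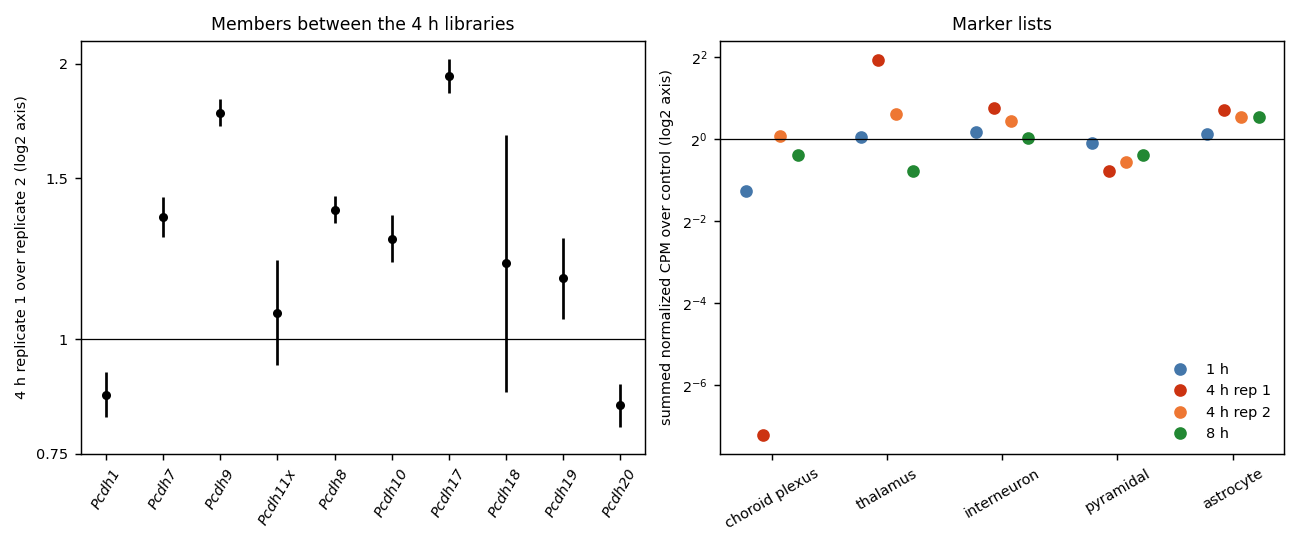
Left, ratio of replicate 1 to replicate 2 at 4 h for each member with exact binomial 95% intervals (log2 axis). Right, summed normalized CPM of 5 marker lists over the control in the 4 kainic acid libraries (log2 axis), where the choroid plexus sum of replicate 1 lies at 0.00673 and its thalamus sum at 3.87 times the control.

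The remaining marker lists are given as summed normalized CPM in the same order of libraries. The 4 pyramidal neuron markers, of which Neurod6 was the most abundant over all libraries together, summed to 373, 349, 219.5, 254 and 289, lowest in the 4 h replicates. In these replicates Neurod6 (60.9 and 67.1) lay below Wfs1 (76.7 and 88.5) and Fibcd1 (69.1 and 92.3). At 4 h DESeq2 called 1 of them lower and edgeR called 0 with 2 at an unadjusted p under 0.05, and the log2 fold changes ran from -1.17 for Neurod6 to -0.03 for Wfs1. The 5 interneuron markers, led by Gad1, summed to 480.0, 542, 815, 655 and 490.2, highest in the 4 h replicates. In replicate 2 Gad1 and Gad2 carried the higher sum, and the median log2 ratio of the 5 markers was 0.00, with 3 of 5 above the control. The 4 astrocyte markers, led by Slc1a3, summed to 922, 1014, 1520, 1355 and 1356. Gfap carried most of the higher sums, at 221 in the control, 596 and 510.2 in the 4 h replicates and 587 at 8 h, and DESeq2 called 1 marker of this list at 4 h and 1 at 8 h, where edgeR called 0 with 3 and 1 at an unadjusted p under 0.05. Slc1a3 stood at 509 in the control, 625 and 590.3 at 4 h and 579 at 8 h, and Aqp4 at 8 h was below the control (log2 fold change -0.05).

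The 4 general neuron markers, led by Snap25, summed to 3123, 3281, 3185, 2868 and 2666, and the 4 granule cell markers, led by Prox1, to 264, 261, 276, 217 and 264. Neuron and granule cell markers, those of the labelled tissue, were present in every library, but the granule cell markers went apart at 4 h and at 8 h. Prox1 had 1194 counts in the control and 2889 and 2263 in the 4 h replicates, Dsp had 1437, 73 and 257, and C1ql2 had 584, 186 and 221. DESeq2 called 1 marker of this list higher and 1 lower at 4 h, and edgeR called 0 with 3 at an unadjusted p under 0.05. At 8 h the log2 fold change was 0.98 for C1ql2 and -0.75 for Calb1, and edgeR and DESeq2 called 0, with 2 markers at an unadjusted edgeR p under 0.05. The 4 oligodendrocyte markers, led by Mbp, summed to 2581, 3156, 2980, 3807 and 2377, and the 3 markers of their precursors, led by Pdgfra, to 147, 144, 135, 164 and 126. Pdgfra carried the higher precursor sum in replicate 2, where the log2 ratios of Cspg4 and Gpr17 were -0.24 and -0.09. Microglia, by 4 markers led by Csf1r, stood at 151, 154, 124, 126 and 134. Replicate 2 was highest in the oligodendrocyte sum.

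Endothelium, by 4 markers led by Flt1, stood at 72.7 in the control and at 1.01, 1.72, 0.975 and 1.21 times that sum in the kainic acid libraries, highest in replicate 1, where Cldn5 was not above the control (log2 ratio -0.04). At 8 h Pecam1, at 26.2 normalized CPM against 13.1 in the control, carried most of the higher sum, and Flt1 was below the control (log2 fold change -0.12). Mural cells and fibroblasts, by 5 markers led by Rgs5, stood at 182, 145, 159, 178 and 146. Dcn, at 20.8 against 44.9 in the control, carried most of the lower sum at 1 h, and Dcn and Rgs5 carried that at 8 h, where the other 3 markers were above the control. Of all these lists, no marker had a count of 0 in any library. The part of these cell types in the levels of the members was not tested.

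By the root mean square difference of log2 ratios to the control over the 4 kainic acid libraries, the 5 genes most like Pcdh8 were Gadd45b (0.33), Fndc7 (0.49), Csrnp1 (0.54), Ccl2 (0.56) and Pim1 (0.57). Of 19767 genes compared, 2 lay within 0.5 and 24 within 1. Gadd45b, a stress-response gene linked to DNA demethylation, stood at 7.24, 106, 152, 72.2 and 20.9 normalized CPM. Its libraries had the same order as those of Pcdh8 except that replicate 2 lay below the 1 h library.

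Csrnp1, a nuclear protein induced by growth factors, stood at 6.88, 53.0, 139, 61.5 and 16.9, and Pim1, a serine/threonine kinase, at 1.36, 14.7, 52.8, 15.8 and 4.51. Both were highest in replicate 1 and lowest in the control. Fndc7 had 0, 17, 18, 21 and 3 counts and Ccl2, a chemokine, had 0, 18, 38, 13 and 10, so their likeness rests on few counts and on the prior count of 2 that stands in for the control. In this likeness the 4 libraries share the control, and it says nothing of shared function.

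**Figure D5:**
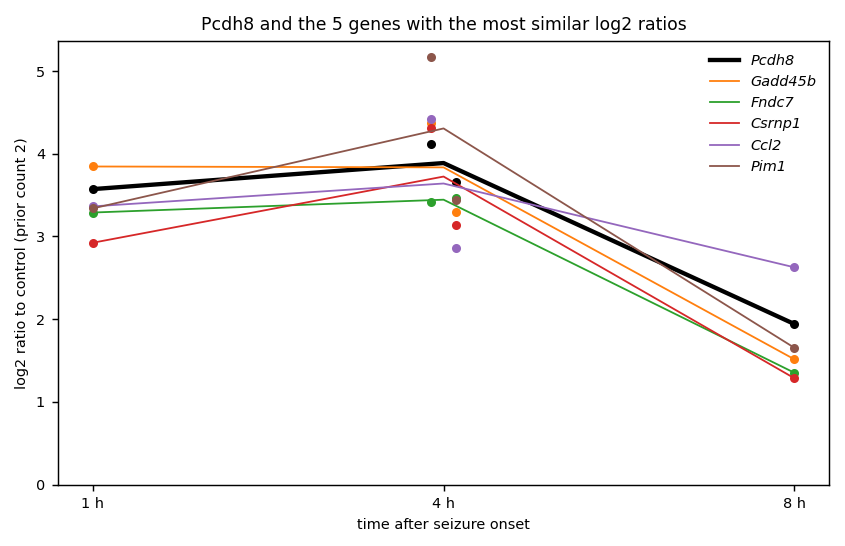
Log2 ratio to the control (prior count 2) of Pcdh8 (black) and the 5 genes with the smallest root mean square difference from it, at 1, 4 and 8 h, with points for libraries and lines through the 4 h mean. Pcdh8 lies at 3.57, 4.12, 3.65 and 1.94 in the 4 libraries.

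Activity-regulated genes were taken as a reference for the time course. In a list of 16 such genes, all 16 were at least 2-fold above the control at 1 h, 11 in both libraries at 4 h and 6 at 8 h. Of all genes tested, 5.41%, 4.96% and 6.79% were as far above. The median log2 fold change of the list was 4.00, 3.59 and 0.58. At 8 h 1 gene of the list was at least 2-fold below the control, against 3.37% of all genes, and 5 of the 16 log2 fold changes were negative. The largest log2 fold change was that of Npas4 at 1 h (7.43, SE 2.29), of Inhba at 4 h (6.71, SE 0.77) and again of Inhba at 8 h (3.53, SE 0.70), and the smallest were those of Bdnf (2.25) at 1 h, Egr1 (1.15) at 4 h and Egr2 (-0.95) at 8 h. The 4 h replicates differed widely in this list, since all 16 genes were higher in replicate 1, where 16 were at least 2-fold above the control and the median log2 ratio was 4.12, against 11 and 2.64 in replicate 2. The summed level was 18.5 and 6.75 times the control, Npas4 had 2189 and 93 counts and Inhba 17572 and 7597, and the log2 ratio of Egr1 was 1.76 and 0.08. edgeR called 0 of the 16 at each time, with an unadjusted p under 0.05 for 16, 11 and 3 of them, DESeq2 called 5, 7 and 1, all higher than the control, and limma-voom called 0. Pcdh8 lay below the list median at 1 h and above it at 8 h, and at 4 h its log2 ratio of 4.12 in replicate 1 equalled the list median to 2 decimals while that of 3.65 in replicate 2 lay above it. The difference was not tested.

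The proteins that bind delta protocadherin tails were followed as well. Of 9 genes of the WAVE complex, 0 were at least 2-fold above or below the control at any time. Of all genes tested, 5.41%, 4.96% and 6.79% were as far above at 1, 4 and 8 h, and 3.8%, 1.51% and 3.37% as far below. With 9 genes a count of 0 is near these shares, and nothing is read from it. The median log2 fold change of the WAVE complex was 0.08, -0.01 and 0.06. Its extremes were Abi2 (0.13) and Wasf1 (-0.07) at 1 h, Wasf2 (0.26, SE 0.26) and Wasf3 (-0.37, SE 0.16) at 4 h, and Brk1 (0.16) and Wasf1 (-0.27) at 8 h. Of 15 further partners, which include the TAO kinases and p38 through which Pcdh8 is known to draw N-cadherin from the synapse, the medians were 0.05, 0.05 and 0.06, and library size alone in place of TMM factors turned those at 1 h and 4 h to -0.02 and -0.07. The extremes were Ctnnd1 (1.07, SE 0.41) and Taok3 (-0.17) at 1 h, Map2k3 (1.03, SE 0.41) and Mapk14 (-0.61, SE 0.17) at 4 h, and Mapk11 (0.37) and Map2k6 (-0.48) at 8 h. The log2 ratio of Map2k3 was 1.38 in replicate 1 and 0.58 in replicate 2. edgeR, DESeq2 and limma-voom called 0 genes of either list at any time. In replicates 1 and 2 alone the 4 h medians were -0.02 and -0.02 for the WAVE genes and 0.06 and 0.10 for the other partners. edgeR gave an unadjusted p under 0.05 for 0 WAVE genes and for 1, 4 and 0 of the other partners.

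Other cadherins were summarised by list. Of the 58 clustered protocadherins, 56 passed the filter, and 0, 0 and 1 were at least 2-fold above and 1, 0 and 0 at least 2-fold below the control at 1, 4 and 8 h. The shares over all genes tested were 5.41%, 4.96% and 6.79% above and 3.8%, 1.51% and 3.37% below. The clustered protocadherins had a median log2 fold change of 0.10, -0.24 and 0.03, with 38, 10 and 33 of 56 positive, beside medians of -0.01, 0.01 and 0.01 over all genes tested. The 19 classical cadherins had medians of -0.01, -0.01 and -0.12. Their extremes were Cdh6 (0.27, SE 0.51) and Cdh3 (-1.54, SE 1.95) at 1 h, Cdh5 (1.23, SE 0.60) and Cdh3 (-0.52, SE 1.52) at 4 h, and Cdh3 (1.25, SE 1.71) and Cdh19 (-0.84, SE 0.29) at 8 h. Both extremes at 4 h rested on replicate 1. Cdh3 had 37 counts in the control, 0 in replicate 1 and 47 in replicate 2, and Cdh5, which is also an endothelial marker, stood at a log2 ratio of 1.75 in replicate 1 and 0.43 in replicate 2.

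In the list of 12 large cadherins and calsyntenins the medians were 0.07, -0.22 and -0.28. Its extremes were Fat3 (0.32) and Dchs2 (-0.35) at 1 h, Clstn3 (0.48, SE 0.26) and Fat4 (-0.75, SE 0.47) at 4 h, and Clstn2 (0.50, SE 0.19) and Fat4 (-1.28, SE 0.56) at 8 h. At 4 h the log2 ratio of Fat4 was -0.26 in replicate 1 and -1.48 in replicate 2, and that of Clstn3 was 0.72 and 0.18. Of the 3 other non-clustered relatives, Pcdh12 had at most 10 counts and did not pass the filter, Pcdh15 of hair cells had 376, 319, 451, 342 and 266 counts, and Cdhr1 of photoreceptors had 100, 80, 37, 61 and 59. Pcdh15 and Cdhr1 had a median log2 fold change of -0.10, -0.31 and -0.44. At 4 h these genes went apart, with a log2 fold change of 0.25 for Pcdh15 and -0.86 for Cdhr1, so that median describes no shared direction. The medians of these 4 lists kept their signs with library size alone and with median-of-ratios factors. In replicates 1 and 2 alone the 4 h medians were -0.19 and -0.30 for the clustered protocadherins, -0.29 and -0.07 for the large cadherins and calsyntenins and -0.33 and -0.34 for Pcdh15 and Cdhr1. For the classical cadherins they were 0.01 and 0.20, of the other sign than the fitted median. edgeR, DESeq2 and limma-voom called 0 genes of them at any time. An unadjusted p under 0.05 in edgeR was given to 0 clustered protocadherins, to 0, 0 and 1 classical cadherins, to 0, 1 and 1 large cadherins and calsyntenins and to 0 of Pcdh15 and Cdhr1.

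By position, 4 members lie on chromosome 14, in the order Pcdh8, Pcdh17, Pcdh20 and Pcdh9, with gaps of 4.67, 3.93 and 4.54 Mb. These neighbours differed in their course, since Pcdh17 and Pcdh9 were higher than the control in both libraries at 4 h and Pcdh20 was lower in both. Within 500 kb of Pcdh8, 0 of 10 protein-coding genes were at least 2-fold above the control in both libraries at 4 h, against 4.96% of all genes tested. At 1 h 1 of the 10 was, against 5.41%, namely Cnmd with 29 counts against 16 in the control and a ratio of 2.05 (1.08 to 4.05), and at 8 h 1 was, against 6.79%, namely Olfm4 with 564 against 61. At least 2-fold below the control were 1 at 1 h, 1 in both libraries at 4 h and 0 at 8 h, against 3.8%, 1.51% and 3.37% of all genes, namely Kbtbd6 with 26, 10, 3, 11 and 23 counts. These 3 neighbours were singled out after their values were seen. Pcdh10 and Pcdh18 lie on chromosome 3, Pcdh11x and Pcdh19 on the X chromosome, and Pcdh7 on chromosome 5.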

How the data were processed

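Hippocampal RNA of 5 libraries (untreated control, 1 h, 4 h in 2 replicates and 8 h after seizure onset) had been sequenced from a stranded total RNA kit, and the authors deposited whole-number counts per gene with no normalization. The submitters' processing notes name STAR 2.5.1b, HTSeq and the build GRCm38.p4. Neither the strand setting nor the release of the annotation is given in the sources used here. Lines that name no gene were left out of library sizes and tests, and the reads on no gene made up 24.7% to 33.1%.

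Counts were filtered with filterByExpr, normalized with TMM and fitted in edgeR 4.0.16 (R 4.3.3) with a quasi-likelihood model of the 4 groups (1 residual degree of freedom, prior count 2, Benjamini-Hochberg over all genes, threshold 0.05). A standard error was the unshrunk log2 coefficient over the square root of F. Alternatives were DESeq2 1.42.0, limma-voom (limma 3.58.1), median-of-ratios factors, library size alone, no filter, at least 10 counts in every library, a prior count of 0.125 and each 4 h replicate left out. The fits were tested on simulated data. Exon lengths and positions were read from GENCODE M21 (GRCm38), in which 55144 of 55385 identifiers were found, and promoters from RefSeq. Python 3.11.15 with scipy 1.17.1 gave the intervals and matplotlib 3.10.9 the plots.

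Genes named were the 10 members, the highest and lowest log2 fold change of each gene list at each time or genes past the threshold, the most abundant marker of each cell type list over all libraries together, and the 5 genes most like Pcdh8. Named beside this rule were other genes of these lists where single markers carried a sum, Pcdh12, the gene that overlaps Pcdh8, a gene model within Pcdh9 and 3 neighbours of Pcdh8, chosen after their values were seen. Clustered protocadherins were given as counts. The members and lists were chosen with earlier results of these data known.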

Additional observations from a re-analysis of the deposited data

How the results depend on the processing

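edgeR called 0, 1 and 0 genes at 1, 4 and 8 h. Library size alone gave 57, 237 and 22, no filter on low counts 285, 1300 and 279, and DESeq2 56, 238 and 33. A minimum of 10 counts in every library gave 1, 0 and 0, and median-of-ratios factors and limma-voom gave 0, 0 and 0. The cause was not tested. Of 230 alternative values of the members' log2 fold changes, 185 kept their direction and their side of the threshold, 25 without a test kept their direction, 12 passed the threshold only under the alternative and 8 changed sign. Those at 1 h were Pcdh11x (-0.0271) and Pcdh17 (-0.0618) with library size alone. Pcdh17 at 8 h changed sign with median-of-ratios factors (9.65e-05), library size alone (0.0157), at least 10 counts (0.0217) and DESeq2 (9.76e-05). Pcdh1 at 4 h went from -0.00939 in the main fit to 0.0870 without replicate 1, and was -0.11 without replicate 2. Pcdh10 at 4 h went from -0.0718 in the main fit to 0.0997 without replicate 2, and was -0.27 without replicate 1. Leaving out a 4 h replicate leaves no residual degree of freedom, so it gave values and no count of calls. No paired analysis was made because the sample labels name no pairing of libraries. Only the 4 h group has replicates. Pcdh18 had the fewest counts of the members, 77 to 124 a library, and each library but those at 4 h stands alone, so differences at 1 h and 8 h rest on counting error and the spread of the 4 h pair.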

Other observations

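Olfm4, which encodes a secreted glycoprotein and lies 213 kb from Pcdh8, was chosen after its values were seen. Its counts were 61 in the control, 55 at 1 h, 49 and 128 in the 4 h replicates and 564 at 8 h, which gave 3.06, 3.13, 2.91, 6.77 and 32.2 normalized CPM. The 8 h library stood at 10.5 times the control (exact binomial 95% interval 8.05 to 13.9), while Pcdh8 was highest at 4 h. There is a single library at 8 h, so the difference has no replicate check.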
